A study of Mus musculus with 6 samples.

Results

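ADAM and ADAMTS proteins are zinc metalloproteinases of the cell surface and the extracellular matrix. ADAMs sit in the plasma membrane and release the outer parts of growth factors, cytokines and receptors, whereas ADAMTS enzymes are secreted, carry thrombospondin repeats and cut proteoglycans, procollagens and other matrix proteins. ADAMTS-like proteins have the same repeats without a proteinase domain and bind to fibrillin microfibrils. In the heart, members of the family are known for the turnover of versican and other proteoglycans, the maturation of fibrillar collagen and the shedding of Notch, neuregulin and tumor necrosis factor. Their mRNA levels were examined in mouse hearts, over every probe whose annotated symbol is *Adam*, *Adamts* or *Adamtsl* followed by a number. This gave 123 probes of 57 genes (62 ADAM, 49 ADAMTS and 12 ADAMTS-like probes) among the 56605 non-control probes of the array, which carry 27307 symbols.

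Hearts of male C57BL/6J mice lacking the kinase gene *Clk4* in cardiomyocytes (*Clk4*-cKO) had been treated either with AAV NEXN-WT or with AAV NEXN-S437E, 3 animals in each group, with 1 single-colour Agilent array per animal. The deletion was made in young adult *Clk4* fl/fl mice by tamoxifen and MerCreMer, a Cre recombinase that is fused to mutated estrogen receptor domains and driven by the cardiomyocyte promoter α-MHC, so both groups should carry both alleles and have received tamoxifen. Both viruses were of serotype 9, were given into the blood and drove nexilin, a Z-disc protein, together with GFP from a CMV promoter that is not restricted to cardiomyocytes. NEXN-S437E has glutamate in place of serine at the residue that CLK4 phosphorylates and stands in for the phosphorylated protein, and NEXN-WT was the control. The comparison asks how the phosphomimetic changes expression relative to the unmutated protein in *Clk4*-cKO hearts. Neither untreated hearts nor hearts of mice with both *Clk4* copies were analysed here.

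All values below are log2 signals relative to the 75th percentile of the same array, and a log2 fold change is the NEXN-S437E mean minus the NEXN-WT mean, so a value of −1 is a 2-fold lower signal. The 75th percentile of the signal ranged from 110 to 273 over the arrays, 41.9% to 47.8% of spots were well above background in Agilent's own call, and no non-control spot was saturated. The *Clk4* probe A_52_P445387 did not pass the test (log2 fold change 0.13, SE 0.18, adjusted p = 0.706 from limma). Also for *Clk4*, A_52_P128262 was above background on 1 NEXN-WT and 2 NEXN-S437E arrays and A_52_P368396 on 1 of each. These were not tested, and their means were higher with NEXN-S437E by 0.45, without overlap, and by 0.60. The *Clk4* probes were not placed against the deleted exons. The *Nexn* probe A_52_P367520 had a log2 fold change of 0.02. A probe of *Esr1*, the gene of the estrogen receptor whose mutated domains MerCreMer carries, had 3.13, 5.82 and 5.21 on the NEXN-WT arrays but in the NEXN-S437E hearts it was above background nowhere. This probe, A_55_P2030883, was not placed in a receptor domain. Its signal there was lower by a factor of at least 255 (limma, adjusted p = 0.00114). Of the gene's other 6 probes, 4 were above background on no array, A_65_P17231 had a log2 fold change of −0.58 without passing the test, and A_52_P237077, above background with NEXN-WT alone, was at least 1.55-fold lower and not called. The labels give the same knockout to both groups, and a difference between the groups in the transgene and the effect of the virus cannot be told apart in these data. The groups are therefore named by their labels. NEXN-WT replicate 1 stood apart: over the tested family probes its mean absolute difference from the other NEXN-WT arrays was 0.50 and 0.59, against 0.31 between those and 0.25 to 0.29 among the NEXN-S437E arrays. On the slide, the first row held all NEXN-WT arrays plus replicate 1 of NEXN-S437E, and the second row held the other NEXN-S437E arrays. All 8 cardiomyocyte markers were well above background on all 6 arrays.

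Most of the family was below detection in these hearts. Of the 123 probes, 70 were well above background on no array and 11 on some arrays but not on all 3 of a group. The other 42 probes, of 25 genes, were well above background on all 3 arrays of a group and were tested. Of these 42, 35 were above background on all 6 arrays. For 25 genes no probe rose above background on any array. Of these genes, 18 belong to the 21 ADAMs of the testis and epididymis, which act in sperm and fertilization. In that group 26 of 30 probes were above background on no array, as were all 8 markers of male germ cells. The widely expressed sheddases had 11 of 22 probes tested, the proteoglycan-cleaving ADAMTS enzymes 11 of 15, the procollagen N-proteinases 5 of 7 and the ADAMTS-like proteins 5 of 12. *Adamts13*, whose product cleaves von Willebrand factor and is made mainly in the liver, had no tested probe among its 2. Also without a tested probe were *Adam12*, *Adam28*, *Adam33*, *Adamts3*, *Adamts6*, *Adamts16* to *Adamts20*, *Adamtsl1* and *Adamtsl3*. An untested *Adamtsl1* probe, A_55_P2743927, was above background on 2 NEXN-WT arrays and no NEXN-S437E array, at least 1.17-fold lower.

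**Figure D1:**
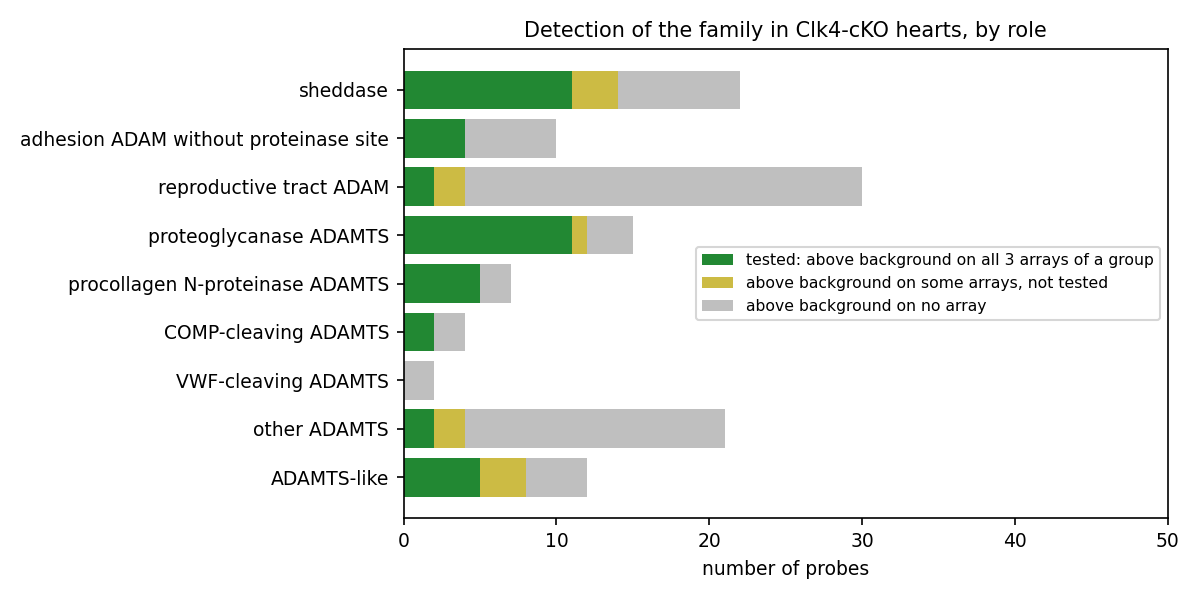
Number of family probes (horizontal axis) by role of the gene (vertical axis). Green bars count the 42 tested probes and yellow bars the 11 above background on some arrays but not tested. Grey bars count the 70 above background on no array, of which 26 belong to the reproductive-tract ADAMs.

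The calls in the family were all falls. At the study's thresholds (2-fold, with p under 0.05 from limma before adjustment), 7 of the 42 tested probes were lower with NEXN-S437E and 0 were higher, against 1.78% lower and 0.735% higher among all 22998 tested probes. The 7 probes belong to 5 genes: *Adamts2*, which removes the N-propeptide of procollagens, *Adamts4*, a proteoglycanase, *Adamts12*, which cleaves cartilage oligomeric matrix protein (COMP), *Adamtsl2*, a microfibril-associated protein, and *Adam8*, a membrane proteinase of leukocytes and other cells. Calls use the fitted fold. Of the 7, *Adamts2* A_52_P184042 and *Adamts4* A_55_P1955778 entered the test through the NEXN-WT hearts alone, since no NEXN-S437E array was above background, and the bound of the *Adamts4* probe, given with its values, is under 2-fold. Among the 35 probes above background on all 6 arrays, the other 5 were called lower and 0 higher, against 1.14% lower and 0.493% higher of the 21099 probes that pass this filter. None (0) passed an adjusted p of 0.05 from limma, where 0.161% of all tested probes did, and the smallest adjusted p in the family was 0.0853. By unadjusted p alone, 13 family probes were lower and 1 was higher, against 6.7% and 10.5% of all tested probes. The methods' t-test left 8 family probes at an unadjusted p under 0.05 and 0 after adjustment, and with the 2-fold threshold it called 6 of the 7, *Adamtsl2* not among them. The groups did not overlap for 16 probes (38.1%), 14 of them lower, against 27.9% of all tested probes. Over all 42 probes, 23 log2 fold changes lay below 0 and 19 above, with a median of −0.07 and a range of −1.84 to 0.84. Over all tested probes the median was 0.09 and 39.2% were below 0. With the percentile taken over detected probes, the median of all tested probes fell by 0.11 to −0.02, and that of the family fell by the same amount to −0.18.

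**Figure D2:**
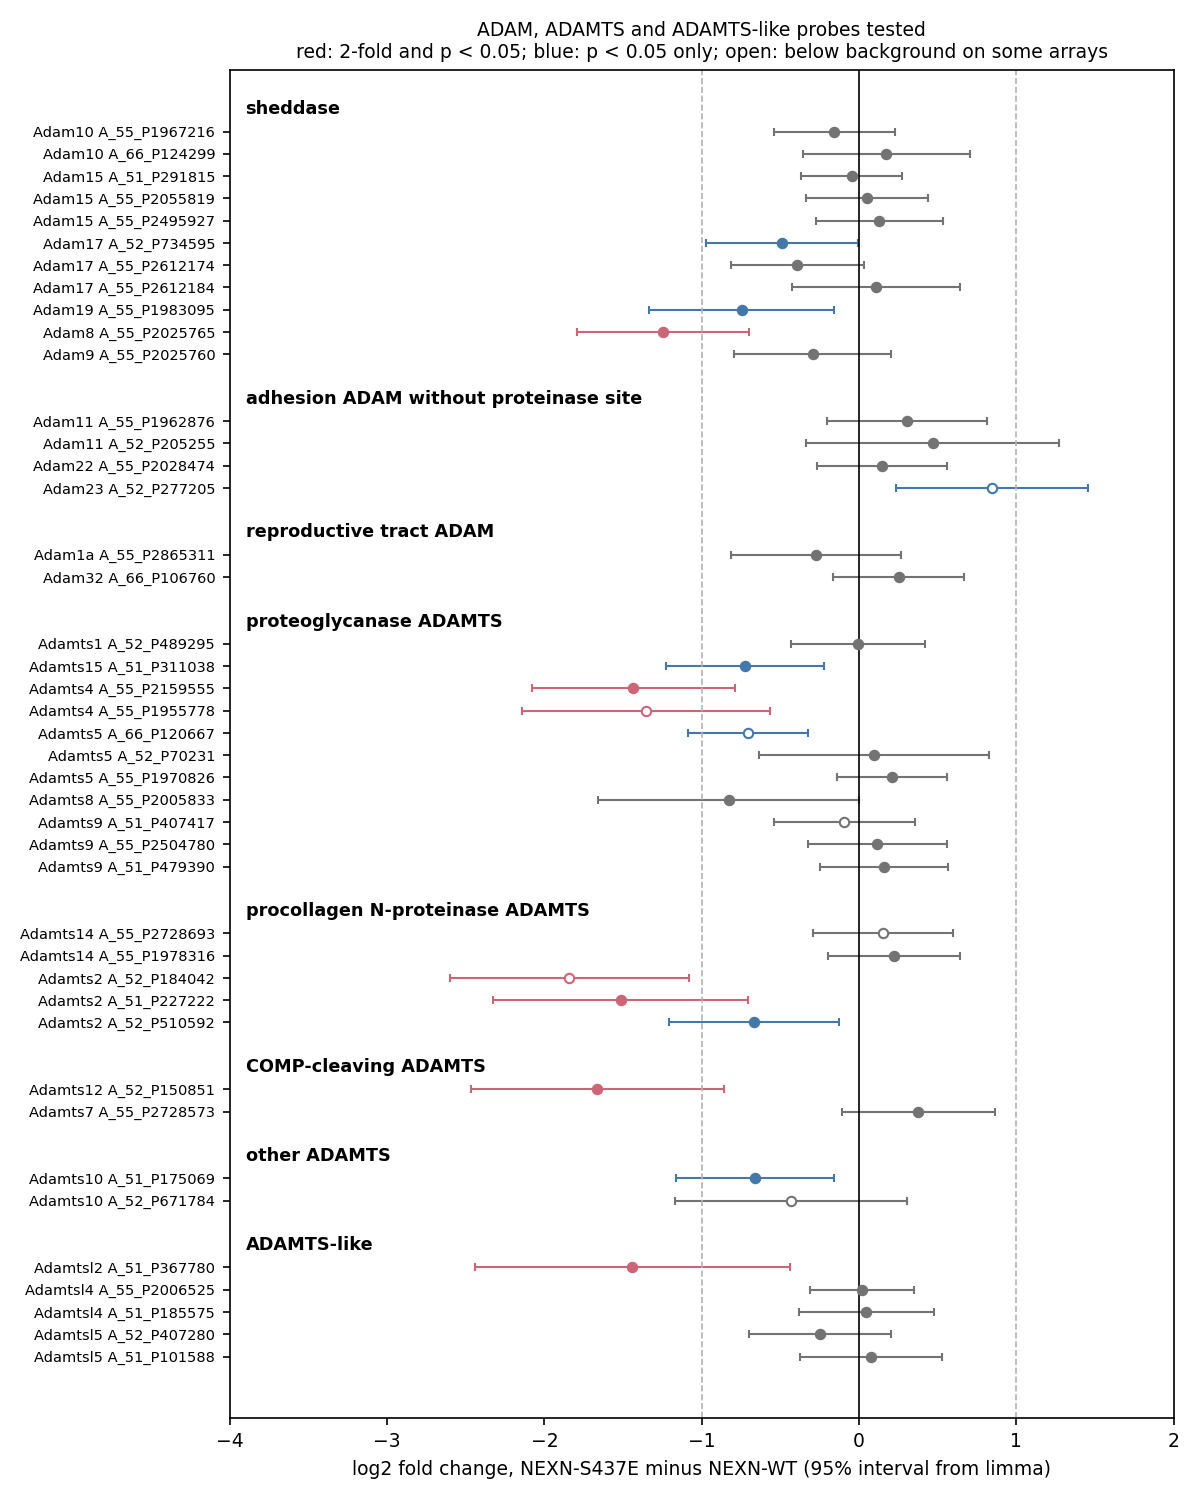
Log2 fold change with NEXN-S437E relative to NEXN-WT (horizontal axis, points with 95% intervals from limma) for the 42 tested probes, grouped by role. The 7 red points lie between −1.84 and −1.25, and 28 of the other 35 lie within 0.5 of 0.

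The probes behind the 7 calls are shown by the first 30 of their 60 bases, since each call rests on what that oligonucleotide hybridised with. Positions are those of the whole probe on mouse build mm9, and sequences are those of the deposited annotation, 5′ to 3′. The build's exons were not used here, so the probes were not placed in exons or UTRs.
Adamts2 A_52_P184042, chr11:50590188-50590247, plus strand: gggcttcactattccatgaacgagcagtgt
Adamts2 A_51_P227222, chr11:50617472-50617531, plus strand: caaagaatccaggagctcattaatgcagtg
Adamts12 A_52_P150851, chr15:11278486-11278545, plus strand: atttcagaccctaacttcccatctggttag
Adamts4 A_55_P2159555, chr1:173190709-173190768, plus strand: aatgagaggaacaggatgtggtctggtatt
Adamts4 A_55_P1955778, chr1:173189952-173190011, plus strand: cgcatctttgagcattagttttctcatgtg
Adamtsl2 A_51_P367780, chr2:26964005-26964064, plus strand: cttccttggacacccactctgcaggggatg
Adam8 A_55_P2025765, chr7:147164873-147164932, minus strand: ccgtcatctccggattgaaacagattagtt
The *Adamts12* probe and the *Adamts4* probe A_55_P2159555 carry no RefSeq transcript in the array's annotation, only the gene symbol.

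*Adamts2* fell on 2 of its 3 tested probes. Its probe A_51_P227222 had 5.39, 4.16 and 3.92 with NEXN-WT and 2.96, 3.09 and 2.88 with NEXN-S437E, a log2 fold change of −1.52 (SE 0.35, adjusted p = 0.134 from limma). Every NEXN-S437E heart lay below every NEXN-WT heart, and NEXN-WT replicate 1 was the highest. A_52_P184042 had −1.14, −2.30 and −2.11 with NEXN-WT, and −4.06, −3.74 and −3.28 with NEXN-S437E, where no array was above background. By that bound it was at least 2.68-fold lower (fitted log2 fold change −1.84, SE 0.33, adjusted p = 0.0853 from limma). The third probe, A_52_P510592, which is annotated to another transcript of the gene, went from −1.93, −2.13 and −2.498 to −2.63, −3.29 and −2.64. Its groups did not overlap, and its log2 fold change of −0.67 (SE 0.23, adjusted p = 0.227 from limma) stayed under 2-fold. The other procollagen N-proteinase detected, *Adamts14*, did not pass the test, with −0.54, −0.74 and −0.59 against −0.34, −0.73 and −0.15 on probe A_55_P1978316 (log2 fold change 0.22, 95% interval −0.20 to 0.64).

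Among the proteoglycanases, which cut versican and aggrecan, *Adamts4* fell on both of its tested probes. A_55_P2159555 had −0.40, −1.07 and −1.58 with NEXN-WT and −2.32, −2.60 and −2.43 with NEXN-S437E, a log2 fold change of −1.44 (SE 0.28, adjusted p = 0.104 from limma). The other, A_55_P1955778, had −2.29, −3.45 and −2.92 with NEXN-WT and −4.76, −3.74 and −4.23 with NEXN-S437E, where no array was above background. It was at least 1.30-fold lower (fitted log2 fold change −1.36, SE 0.34, adjusted p = 0.147 from limma). For both probes the groups did not overlap. *Adamts15* had 0.39, 0.44 and −0.21 with NEXN-WT and −0.26, −0.68 and −0.61 with NEXN-S437E (log2 fold change −0.73, SE 0.22, adjusted p = 0.191 from limma), again without overlap but under 2-fold. *Adamts8* read −0.58, −1.92 and −2.04 against −2.33, −2.47 and −2.23, with the unadjusted p just over the threshold at 0.0503 from limma (log2 fold change −0.83, SE 0.36). Its first NEXN-WT heart was the highest by far, and without that array the log2 fold change was −0.36.

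*Adamts1* and *Adamts9*, proteoglycanases as well, did not pass the test. *Adamts1* had 2.79, 2.71 and 2.51 against 2.99, 2.58 and 2.43 (log2 fold change −0.01, 95% interval −0.43 to 0.42). *Adamts9* probe A_55_P2504780 had 1.75, 1.39 and 1.15 against 1.73, 1.48 and 1.43 (log2 fold change 0.12, 95% interval −0.32 to 0.56). In both, values of the groups interleaved.

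*Adamts5*, a major aggrecanase, needs its probes read separately, because they do not lie on the same strand. Their first 30 bases are shown for that reason, with the position of the whole probe on mm9.
Adamts5 A_52_P70231, chr16:85859201-85859260, minus strand: tttgtgtatttctaataccagtcataacct
Adamts5 A_55_P1970826, chr16:85899450-85899509, minus strand: ccacgaccctcaagaacttttgcaaatggc
Adamts5 A_66_P120667, chr16:85904063-85904122, plus strand: taggaagaaaaactacgttgtctaccatgt
A_66_P120667 lay on the strand opposite to the gene's other probes. It was the 1 probe of the 123 that differed in strand from its gene's promoter entry or, without an entry, from most probes of its gene. It had −2.20, −2.46 and −2.41 with NEXN-WT and −3.20, −3.17 and −2.82 with NEXN-S437E, a log2 fold change of −0.70 (SE 0.16, adjusted p = 0.134 from limma). The other probes did not pass the test: A_55_P1970826 read −2.09, −1.76 and −1.85 against −1.68, −1.79 and −1.61 (log2 fold change 0.21, 95% interval −0.14 to 0.56), and A_52_P70231 had a log2 fold change of 0.10. The opposite-strand probe is therefore not read here as a measure of *Adamts5* mRNA. By its symbol it stays in the 42 tested probes, the 13 lower by unadjusted p and the 14 lower without overlap. It is not among the 7 calls.

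Of the pair of enzymes that cleave COMP, *Adamts12* fell and *Adamts7* did not pass the test. *Adamts12* had −0.41, −1.57 and −1.27 with NEXN-WT and −2.95, −2.16 and −3.14 with NEXN-S437E, a log2 fold change of −1.67 (SE 0.35, adjusted p = 0.114 from limma). The groups did not overlap. The gene's other 2 probes were above background on no array, so the call rests on 1 probe. *Adamts7* read −0.20, 0.44 and 0.55 against 0.64, 0.65 and 0.63 (log2 fold change 0.38, 95% interval −0.11 to 0.86). The difference between these genes was not tested. *Adamts10*, which binds fibrillin, had −1.38, −1.72 and −2.22 against −2.35, −2.45 and −2.51 on probe A_51_P175069, a log2 fold change of −0.66 (SE 0.22, adjusted p = 0.212 from limma).

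*Adamtsl2*, a microfibril-associated regulator of latent TGF-β, had 2.10, 0.34 and 0.37 with NEXN-WT and −0.35, −0.55 and −0.61 in the S437E group, for a log2 fold change of −1.44 (SE 0.43, adjusted p = 0.192 from limma). The groups did not overlap, but the size rested on NEXN-WT replicate 1, without which it was −0.86 and under 2-fold. The other detected ADAMTS-like genes did not pass the test. *Adamtsl4* read 1.98, 1.99 and 1.76 against 2.01, 1.91 and 1.86 (log2 fold change 0.02, 95% interval −0.31 to 0.35). *Adamtsl5* probe A_52_P407280 read 0.38, 1.05 and 0.74 against 0.51, 0.57 and 0.34 (log2 fold change −0.25, 95% interval −0.70 to 0.20).

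Among the sheddases, *Adam8* was the 1 gene called. It had −1.10, −1.74 and −2.03 with NEXN-WT and −2.95, −2.85 and −2.82 with NEXN-S437E, a log2 fold change of −1.25 (SE 0.24, adjusted p = 0.1003 from limma). The 3 NEXN-S437E hearts lay close together and below all NEXN-WT hearts, and without NEXN-WT replicate 1 the value was −0.98, just under 2-fold. *Adam19*, which sheds neuregulin and is needed for heart valve development, had 3.19, 3.10 and 3.56 against 3.03, 2.06 and 2.52 (log2 fold change −0.75, SE 0.26, adjusted p = 0.222 from limma). Its NEXN-S437E replicate 1 was close to the NEXN-WT hearts.

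The main sheddases did not pass the 2-fold threshold. *Adam17*, which releases tumor necrosis factor and ligands of the EGF receptor, had 0.77, 0.49 and 0.02 against −0.18, 0.06 and −0.07 on probe A_52_P734595 (log2 fold change −0.49, SE 0.21, adjusted p = 0.282 from limma). Its other tested probes had log2 fold changes of −0.39 and 0.11, so the 3 probes did not give the same direction. *Adam10*, which starts Notch cleavage, read 3.09, 2.62 and 2.73 against 2.61, 2.63 and 2.74 on probe A_55_P1967216 (log2 fold change −0.16, 95% interval −0.54 to 0.23). *Adam9*, a sheddase of heparin-binding EGF, had 3.03, 2.28 and 2.34 against 2.19, 2.34 and 2.22 (log2 fold change −0.30, 95% interval −0.80 to 0.20). *Adam15*, a membrane proteinase with an integrin-binding loop, had 6.14, 6.55 and 6.56 against 6.74, 6.41 and 6.49 on probe A_55_P2495927 (log2 fold change 0.13, 95% interval −0.28 to 0.53). Its 3 probes lay between −0.05 and 0.13. These intervals leave out a 2-fold change for *Adam9*, *Adam10* and *Adam15* in either direction.

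ADAMs without a catalytic site, which act in cell adhesion, had the 1 probe that was higher by unadjusted p. *Adam23* read −3.92, −3.27 and −2.86 with NEXN-WT, where 2 of 3 arrays were above background, and −2.59, −2.31 and −2.61 in the S437E group. The log2 fold change was 0.84 (SE 0.26, adjusted p = 0.199 from limma). The related *Adam11*, on probe A_52_P205255, had −1.92, −0.84 and −0.41 against −0.43, −0.68 and −0.66 (log2 fold change 0.47, 95% interval −0.34 to 1.27). *Adam22*, the neuronal receptor of LGI1, had −2.02, −2.13 and −2.25 against −2.30, −1.90 and −1.77 (log2 fold change 0.15, 95% interval −0.27 to 0.56). All 4 tested probes of this group lay above 0.

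**Figure D3:**
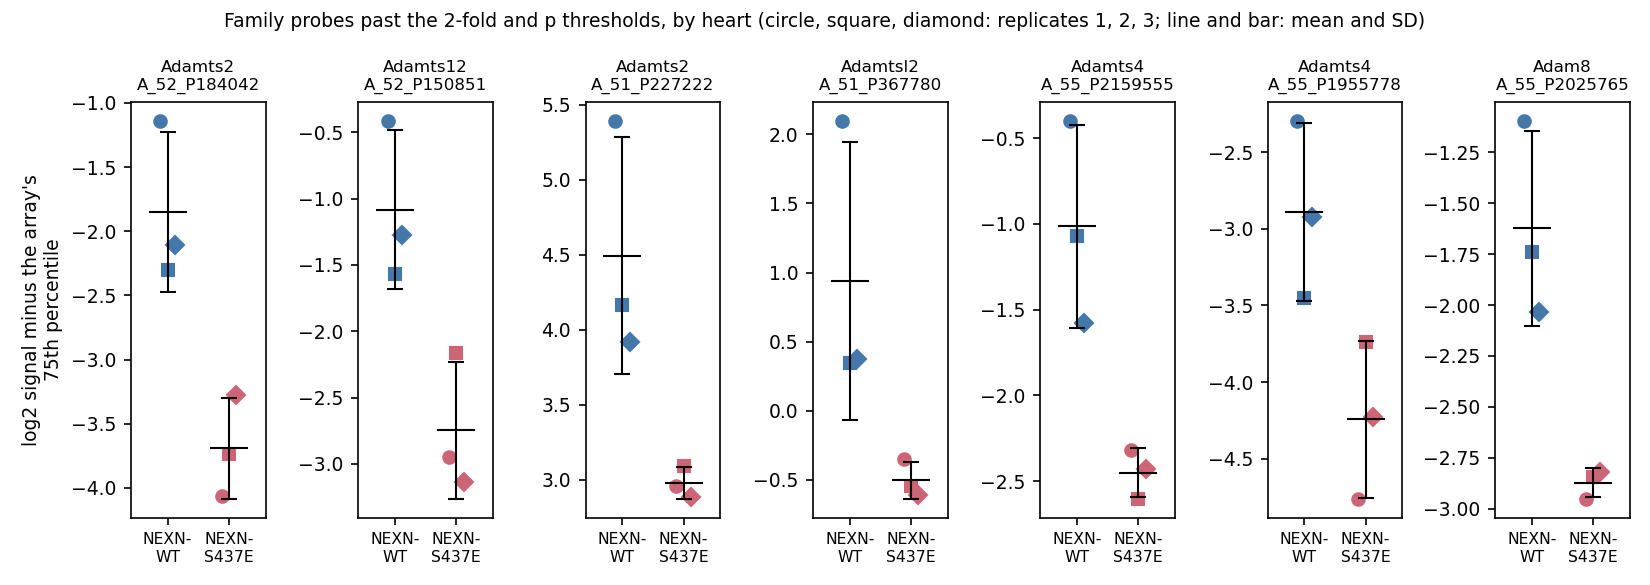
Log2 signal minus the array's 75th percentile (vertical axis, its own scale in each panel) for the 7 called probes, with 1 marker per heart and the mean and SD of 3 hearts. NEXN-WT replicate 1 (circle) is the highest heart in every panel, and no NEXN-S437E heart reaches a NEXN-WT heart.

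Each of the 7 calls was set against the rows of the slide and the array that stood apart. With the slide row as a block, which rests on NEXN-S437E replicate 1 alone against the NEXN-WT arrays of its row, the log2 fold changes of the 5 called probes that were above background in both groups lay between −1.86 and −1.29. The other 2, *Adamts2* A_52_P184042 and *Adamts4* A_55_P1955778, have only fitted values, since no NEXN-S437E array was above background. Since the groups of all 7 probes do not overlap, the NEXN-S437E array of that row must lie below all 3 NEXN-WT arrays. That order is therefore no check of the calls. *Adamtsl2* lost its call with the block (unadjusted p = 0.0962 from limma), and 6 probes passed, among them the 2 with fitted values only. Over all tested probes the block fit called 2.47% lower and 1% higher, more than the 1.78% and 0.735% without the block. With 1 NEXN-S437E array behind the difference, this is no replicated test within the row. That array stood apart in erythrocyte markers, whose summed linear signal was 367 there, 35.2 and 57.8 in the other NEXN-S437E hearts and 46.7 to 132 with NEXN-WT. Outside the calls, the block moved *Adam19* to −0.26 (unadjusted p = 0.391), *Adamts15* to −0.47 (0.159), *Adamts10* to −0.58 (0.123), *Adamts2* A_52_P510592 to −0.44 (0.229), *Adam17* A_52_P734595 to −0.61 (0.0907) and *Adam23* to 0.76 (0.103), none of them past the threshold. Without NEXN-WT replicate 1, 5 of the 7 probes were called, where 1.13% of all tested probes were lower. The values were −1.06 for *Adamts2* A_51_P227222, −1.49 for A_52_P184042, −1.33 for *Adamts12*, and −1.13 and −1.06 for *Adamts4*. Those of A_52_P184042 and A_55_P1955778, the second *Adamts4* probe, are again fitted values. With estimated array weights 5 were called, without *Adamtsl2* (−0.98) and *Adamts4* A_55_P1955778, where 1.48% of all tested probes were lower. *Adamts8* was called without NEXN-WT replicate 2 (−1.03) or replicate 3 (−1.09), and *Adam23* without replicate 3 (1.09). Under normexp background correction, which adds an offset of 50 to every signal, *Adamts2* A_51_P227222 and *Adamtsl2* were called and the other 5 were not, with *Adam8* at −0.31.

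**Figure D4:**
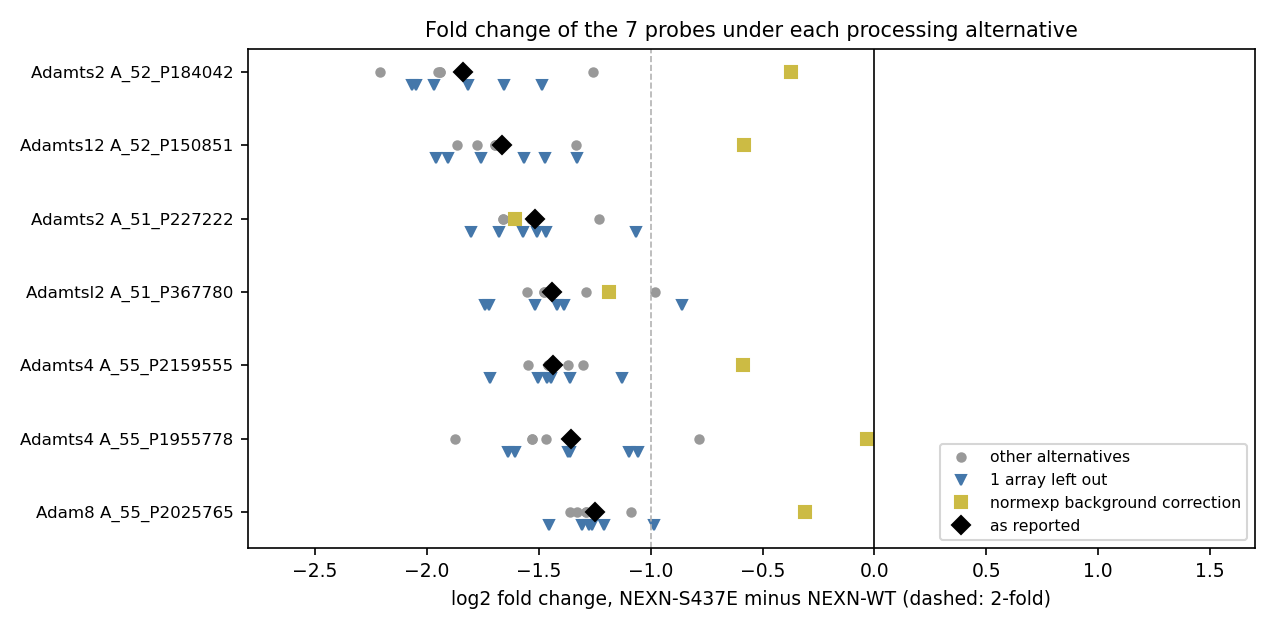
Log2 fold change (horizontal axis) of each of the 7 called probes as reported (diamonds), with each array left out (triangles), with normexp background correction (squares) and under the other alternatives (grey circles). All values lie below 0, and 1 probe, *Adamts2* A_51_P227222, stays past the dashed 2-fold line throughout.

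The proteins that the family works on, with or against were taken as 7 lists of 94 genes, of which 83 were tested by their brightest probe. The lists were chosen with earlier results of these data known, so their counts are no independent support. Of the 83 tested genes, 20 were lower at the 2-fold and unadjusted p thresholds and 0 higher. With 1 probe per gene, 2.14% of all 13747 tested genes were lower and 0.771% higher. The median of the 83 log2 fold changes was −0.34, against 0.07 over all genes at 1 probe each. Without NEXN-WT replicate 1, 13 were lower, and with the slide row as a block 15 were. None (0) passed an adjusted p of 0.05 from limma, while 32 were lower and 2 higher by unadjusted p alone, against 6.7% and 10.5% of all tested probes. Of 14 tested collagens, proteoglycans and other substrates, 10 fell, and of 11 microfibril genes 7 fell. Without NEXN-WT replicate 1 these counts were 7 and 4, as *Vcan* (−0.64), *Fn1* (−0.90) and *Thbs1* (−0.74) among the substrates and *Fbn1* (−0.93), *Mfap2* (−0.98) and *Ltbp3* (−0.72) among the microfibril genes came under 2-fold. With the slide row as a block they were 6 and 6. Over genes above background on all 6 arrays they were 8 of 12 and 7 of 11, and over all lists 18 of 79. Of all probes that pass this filter, 1.14% were lower. *Comp*, the substrate of ADAMTS7 and ADAMTS12, had 5.87, 3.66 and 2.77 with NEXN-WT and 0.43, −0.09 and −0.38 with NEXN-S437E (log2 fold change −4.11, SE 0.69, adjusted p = 0.0821 from limma). Its NEXN-S437E hearts all lay far below the lowest NEXN-WT heart. *Vcan*, which encodes versican, the proteoglycan that ADAMTS1, ADAMTS4 and ADAMTS5 cut, had 2.12, 0.75 and 0.58 against 0.16, −0.02 and −0.09 (log2 fold change −1.13, SE 0.37, adjusted p = 0.214 from limma). The procollagen genes *Col1a1*, *Col1a2* and *Col3a1*, whose chains ADAMTS2 trims, had log2 fold changes of −1.82, −1.49 and −1.34, and *Col2a1*, which was below background with NEXN-S437E, was at least 1.48-fold lower and counts among the 10 by its fitted fold. *Fmod*, *Lox*, *Fn1* and *Thbs1* completed the 10, at −3.30, −2.71, −1.34 and −1.47. *Fmod* was above background on 2 NEXN-S437E arrays, so it and *Col2a1* entered the test through the NEXN-WT hearts alone. *Vwf* had 5.06, 5.18 and 5.42 against 5.80, 5.04 and 5.46 (log2 fold change 0.21, SE 0.22).

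The microfibril genes that fell were *Ltbp2* (log2 fold change −3.80), *Fbn2* (−3.18), *Fbln1* (−1.59), *Mfap2* (−1.43), *Mfap5* (−1.38), *Fbn1* (−1.32), which encodes fibrillin-1, and *Ltbp3* (−1.02). Fibrillin microfibrils are where ADAMTSL2 and ADAMTS10 bind. Of 10 tested controllers of the zinc site and the prodomain, *Timp1* and *Pcsk5* fell. The inhibitor gene *Timp1* went from 4.05 ± 0.96 to 1.59 ± 0.35 (SD, n = 3 each), without overlap between the groups (log2 fold change −2.46, SE 0.44, adjusted p = 0.0853 from limma). *Pcsk5*, a proprotein convertase that activates such enzymes, had a log2 fold change of −1.03, and of −0.60 without NEXN-WT replicate 1, under 2-fold. Differences between the inhibitor genes were not tested. *Timp3*, the main inhibitor of ADAM17 and the aggrecanases, had 5.64, 5.53 and 5.19 against 5.43, 5.35 and 5.38 (log2 fold change −0.07, 95% interval −0.44 to 0.31). *Timp2* had a log2 fold change of −0.63 (SE 0.17) and *Timp4*, the inhibitor typical of the heart, one of 0.81 (SE 0.24), both under 2-fold. *Furin*, another activating convertase, had 0.26 (SE 0.15).

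Of 26 tested shed ligands and receptors, 0 passed the 2-fold and unadjusted p thresholds (2 were lower by unadjusted p from limma alone), with a median of −0.15. Of 9 genes for the traffic of ADAM10 and ADAM17, 0 passed, and 1 was lower by unadjusted p alone. In lists of this size these counts are close to the 1.78% and 6.7% of all tested probes. *Rhbdf1* and *Rhbdf2*, the inactive rhomboid proteins that carry ADAM17 to the cell surface, had log2 fold changes of −0.34 (SE 0.13) and −0.13 (SE 0.19). Of 9 integrin genes, *Itgb7*, a lymphocyte integrin, fell (log2 fold change −1.52, SE 0.22, adjusted p = 0.0599 from limma), and by unadjusted p alone 4 were lower, the others being *Itga4* (−0.74), *Itgb3* (−0.82) and *Itgb5* (−0.72). Under normexp background correction *Itgb7* (−0.38), *Pcsk5* (−0.41), *Vcan* (−0.85) and *Col2a1* came under 2-fold. None (0) of 4 genes for the glycosylation of thrombospondin repeats passed, and 1 was higher by unadjusted p from limma alone.

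**Figure D5:**
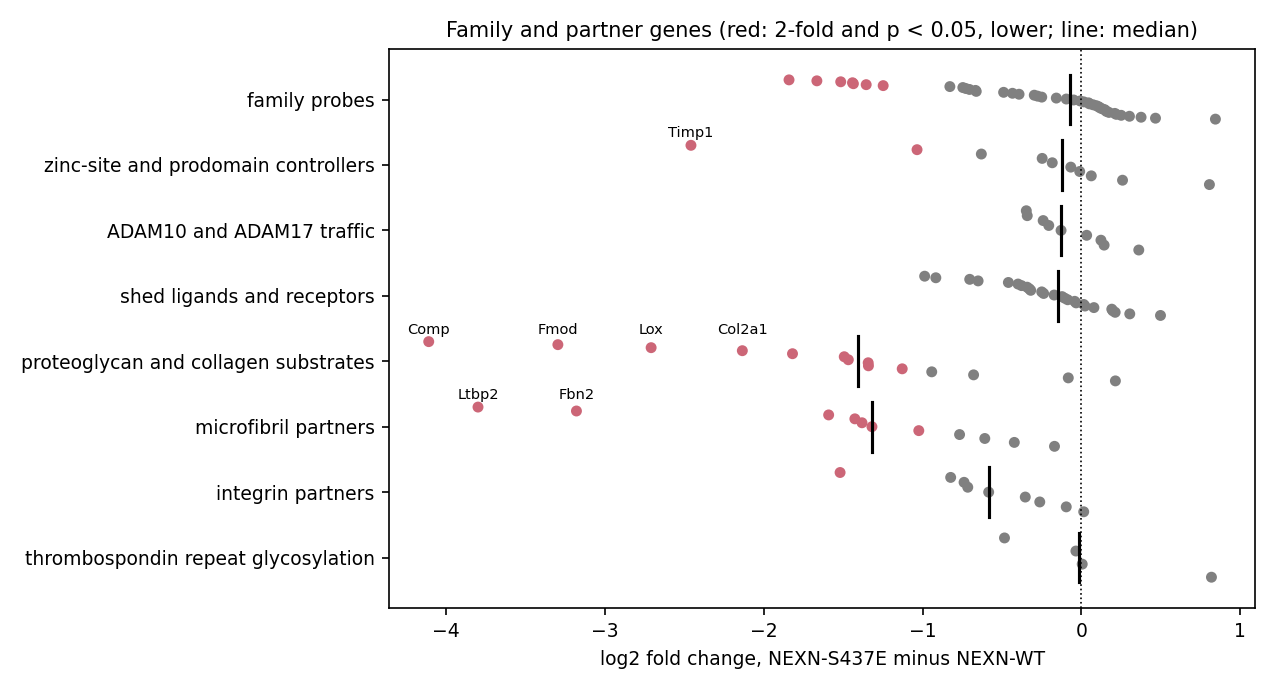
Log2 fold change (horizontal axis) of the tested family probes and of the genes of each partner list (vertical axis), with red for those called lower and a line for the median. The matrix substrates and the microfibril partners lie mostly left of −1, with 10 of 14 and 7 of 11 genes called, and shed ligands and ADAM10 and ADAM17 traffic have 0 called, close to the 1.78% of all tested probes.

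Marker genes of other cells moved with the same contrast. The summed linear signal of 8 activated fibroblast markers, relative to each array's 75th percentile, was 316 in NEXN-WT replicate 1, 65.3 and 56.1 in the other NEXN-WT hearts and 11.4 to 12.7 with NEXN-S437E, and 7 of the 8 genes were called lower, also without NEXN-WT replicate 1. *Comp* and *Ltbp2* are among them and are also counted above. The sum of 8 fibroblast markers was 932 to 1299 against 820 to 858, with 3 of 8 called lower, all 3 of them in the partner lists. For 8 cardiomyocyte markers it was 1923 to 2531 against 2973 to 3138, with 0 called. T cell markers summed to 2.97 to 4.67 against 1.49 to 1.66, with 4 of 6 tested genes called lower. NK cell markers summed to 1.62 to 4.81 against 0.766 to 0.926, with 4 of 4 tested genes called lower and the other 4 listed genes not tested. B and plasma cell markers summed to 1.11 to 1.28 against 0.688 to 0.725, with 1 of 3 tested genes called lower. Some of these markers entered the test through the NEXN-WT hearts. Over genes above background on all 6 arrays, 6 of 7 activated fibroblast markers were called lower. The same counts were 2 of 4 for T cells, 2 of 2 for NK cells and 0 of 1 for B and plasma cells. Of all tested probes 1.78% were called lower, and of those above background on all 6 arrays 1.14%. Above background on no NEXN-S437E array were *Cd3g*, at least 2.18-fold lower, *Klrd1*, at least 1.94-fold lower, and *Jchain*, at least 4.13-fold lower. Under normexp background correction the called lower were 1 of 6 for T cells, 2 of 4 for NK cells and 0 of 3 for B and plasma cells, while the activated fibroblast count was again 7 of 8. The sums of macrophage, endothelial, smooth muscle, neutrophil and erythrocyte markers overlapped between the groups, with 0 called. With the slide row as a block, which rests on NEXN-S437E replicate 1, 4 of 5 tested erythrocyte and 2 of 3 neutrophil markers were called higher. The adipocyte markers had 1 tested gene, not called, and none of the 8 was above background on all 6 arrays. In whole-heart RNA, fewer cells of a type and less RNA per cell cannot be told apart, and the part of the cell makeup in the fall of the 5 family genes was not tested.

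The windows before the start sites of the called genes are shown because these genes moved in the same direction. RefSeq promoters of mouse build GRCm38.p6 were given for 31 of the 57 family genes, *Adamts4* not among them, so 4 of the 5 called genes are printed, as the 250 bases before the annotated start, 5′ to 3′ along the gene. Capitals mark matches on either strand to the letters of 5 motifs. The TATA box was searched as TATAAA. The GC box, which binds SP factors, was searched as GGGCGG. For AP-1, the dimer of FOS and JUN proteins, the letters were TGANTCA. For TEAD factors, the partners of YAP, they were GGAATG. The SMAD box of TGF-β signaling was searched as CAGAC. No match overlapped another.
Adamts2, chr11:50601835-50602084, plus strand: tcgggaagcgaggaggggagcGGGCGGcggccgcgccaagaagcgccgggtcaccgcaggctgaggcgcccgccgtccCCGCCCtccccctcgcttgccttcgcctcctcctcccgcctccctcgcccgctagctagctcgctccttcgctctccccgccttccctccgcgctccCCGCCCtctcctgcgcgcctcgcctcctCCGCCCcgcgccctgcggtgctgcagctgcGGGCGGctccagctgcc
Adamts12, chr15:11064523-11064772, plus strand: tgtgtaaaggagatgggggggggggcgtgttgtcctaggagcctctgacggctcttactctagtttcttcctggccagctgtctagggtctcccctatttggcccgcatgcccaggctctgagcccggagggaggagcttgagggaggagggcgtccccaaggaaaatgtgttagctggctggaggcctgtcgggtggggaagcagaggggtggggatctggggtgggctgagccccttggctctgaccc
Adamtsl2, chr2:27079129-27079378, plus strand: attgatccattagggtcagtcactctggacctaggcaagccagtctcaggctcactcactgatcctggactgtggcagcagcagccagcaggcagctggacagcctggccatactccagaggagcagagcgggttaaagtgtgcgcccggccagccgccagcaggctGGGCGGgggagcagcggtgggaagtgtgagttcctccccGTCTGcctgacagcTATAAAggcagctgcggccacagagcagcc
Adam8, chr7:139992563-139992812, minus strand: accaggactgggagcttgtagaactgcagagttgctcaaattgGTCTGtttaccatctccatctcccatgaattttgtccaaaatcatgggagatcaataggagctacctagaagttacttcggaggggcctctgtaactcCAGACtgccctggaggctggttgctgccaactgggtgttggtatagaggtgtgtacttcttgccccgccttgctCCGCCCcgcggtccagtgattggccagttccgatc
The windows differed in makeup. That of *Adamts2* was 78.0% G or C, with 34 CG pairs and 5 GC boxes, against medians of 52.4% and 6 pairs over all 32851 windows. *Adamtsl2* had a TATA box from 30 to 25 bases before the start, which 12.4% of all windows hold anywhere, 1 GC box and 1 SMAD box. *Adam8* had 1 GC box, which 32.7% of all windows hold, and 2 SMAD boxes, which 42.2% hold. *Adamts12* held none of the 5 motifs, and none of the 4 windows held the AP-1 letters (6.75% of all windows) or the TEAD letters (12.6%). These matches describe the letters only.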

How the data were processed

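Total RNA of 6 *Clk4*-cKO hearts (3 NEXN-WT, 3 NEXN-S437E, grouped by their labels) was labelled with Cy3 and hybridised to 1 Agilent array each, on 1 slide and in 1 scan. The authors extracted the arrays with Agilent Feature Extraction 10.7.1.1 (submitters' processing notes) and deposited spot intensities with the background subtracted and no scaling between arrays. A second deposited table gives probe signals, 99.8% of which lay within a relative 0.001 of the spot means, and the authors' normalized log2 values, whose sorted columns are identical. The software of that normalization is not given in the sources used here.

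Control spots were removed, log2 of the processed signal was taken minus each array's 75th percentile, and spots marked as outliers were dropped before the spots of a probe were averaged. A probe entered the test if all 3 arrays of a group were well above background (22998 probes). The groups were compared by limma 3.58.1 (lmFit and eBayes; R 4.3.3), with Benjamini-Hochberg adjustment over all tested probes. Calls used the study's thresholds of 2-fold and an unadjusted p of 0.05. Calls, ranges, figures and alternatives use the fitted fold. Where no array of a group was above background, the text gives a bound beside it: the brighter group's mean against the dimmer group's mean of, per array, the higher of the probe's own signal and the lowest signal well above background. The smallest exact two-sided permutation p for 3 against 3 is 0.1. Precision is limited by the number of arrays and by how far a signal lies above background.

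Members were matched by symbol, and their Entrez identifiers carry the same symbols in RefSeq. Members, lists, roles and alternatives were chosen with earlier results of these data known. Named are all called probes, up to 5 other increases and decreases at an unadjusted p under 0.05, the brightest tested probe of each gene with a listed role, called partner genes and 10 partners named beforehand. The alternatives were quantile normalization, the authors' normalized values, the percentile over detected probes, normexp (offset 50), other filters, outlier spots kept, the methods' t-test, the replicate number and the slide row as blocks, an intensity trend, array weights, 1 probe per gene, each array left out and a 1.5-fold threshold. The test was checked on simulated data. Sequences and figures were handled in Python 3.11.15 with pandas 2.3.3, numpy 2.4.6 and matplotlib 3.10.9.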

Additional observations from a re-analysis of the deposited data

How the results depend on the processing

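The count of 7 called family probes was 5 to 9 with 1 array left out, 2 with normexp background correction and 13 at 1.5-fold, and within 1.5 times of 7 otherwise. Of the 13, 12 were lower and 1 higher. Over all tested probes, 1.78% lower became 1.13% to 2.4% with 1 array left out and 0.674% with normexp. At 1.5-fold 4.32% of all tested probes were lower and 4.66% higher. Family probes past an adjusted p of 0.05 from limma numbered 16 with estimated array weights, against 0. With these weights 3820 of all 22998 tested probes passed it, against 37. The family count was 0 to 1 with 1 array left out. The 1 came without NEXN-WT replicate 1, where 128 of all tested probes passed. Called partner genes numbered 13 with array weights, 32 at 1.5-fold, and 13 (without NEXN-WT replicate 1) to 24 with 1 array left out, against 20. The family median, −0.07, was 0.20 without the filter on dim probes, −0.25 with 1 probe per gene, −0.15 with array weights, −0.18 with quantile normalization, the authors' values or the percentile over detected probes, −0.01 over probes above background on all 6 arrays, −0.02 with normexp, −0.03 with the slide row as a block, and −0.14 (without NEXN-S437E replicate 1) to −0.03 (without NEXN-S437E replicate 3) with 1 array left out. The cause of these moves was not tested, except that 1.5-fold admits more probes by construction. No result among those named reversed past the threshold. Among named probes that did not pass the test, *Adamts1*, *Adamtsl4*, *Adam15*, *Adam10*, *Adam22* and *Adamts9* changed sign under at least 1 alternative. The share of lower probes among all calls, 70.8%, was 81.6% with the percentile over detected probes and 86.1% with normexp. It was 48.1% at 1.5-fold and 27.5% without the filter.

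The replicate numbers do not pair the hearts (correlations of same-numbered deviations −0.15, −0.03 and −0.18), and the fit with the replicate number as a block called the same 7 probes and 0 past the adjusted p. Probes near background, such as *Adamts4* A_55_P1955778 and *Adam23*, are the least certain.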
